A study of Mus musculus with 20 samples.

Results

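CD45+ cells were set against CD45- cells within tumours of the mouse mammary carcinoma line 66cl4, across all expressed genes. The comparison used 10 of the 20 RNA sequencing libraries of the study, namely the 5 of 66cl4 CD45+ and the 5 of 66cl4 CD45- cells by their titles, and each pair came from 1 animal, so that animals 3, 4, 5, 6 and 7 each gave both gates. The other 10 libraries were sorted in the same manner from 67NR tumours, which unlike 66cl4 tumours do not spread, and served here to test where the gate difference was not shared. All animals were untreated, immunocompetent female BALB/cJ mice whose tumour grew from 1000000 injected cells in the mammary fat pad. Live cells of the dissociated tumour were parted by an antibody to CD45. The CD45+ gate therefore pooled all leukocytes, and the CD45- gate pooled the tumour cells with any host cell that lacks CD45. All tumours came from a single cell line, so the animals repeat the host and the tumour but not the origin of the cancer cells.

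CD45 is a receptor-type tyrosine phosphatase encoded by Ptprc. It sits on the surface of nucleated cells of the blood lineage, where it removes inhibitory phosphates from Src-family kinases and so sets the threshold of antigen receptor signalling. Fibroblasts, endothelium, epithelium and carcinoma cells lack it, which makes it the usual marker for separating leukocytes from the rest of a solid tumour. In mammary tumours the leukocytes include macrophages, neutrophils and lymphocytes, and a line such as 66cl4 may have lost many epithelial traits and gained mesenchymal ones.

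The total count per library was 13729266 to 21495951 in CD45+ cells and 13050039 to 28080314 in CD45- cells. Of 52783 genes in the deposited table, 23145 had no count in any of the 10 libraries, and 14916 passed a filter on low counts and were tested. For animals 5 and 6 the recorded cell type of both libraries names the opposite gate to that of the title. The titles were followed, of which that of the CD45- library of animal 5 names CD46, read here as a slip for CD45. Ptprc, which the sort itself acted on, was high in all 5 libraries taken as CD45+ and low in all 5 taken as CD45-. Its normalised read counts in CD45+ cells were 20509, 20866, 17697, 20442 and 18038 in animals 3 to 7. In CD45- cells they were 11, 26, 138, 40 and 161. The ranges lay far apart, with a log2 fold change of 8.37 ± 0.72 (SE; edgeR, adjusted p = 4.1e-05), and the CD45- libraries of animals 5 and 7 held the most Ptprc. Levels below are counts divided by DESeq2 size factors and are comparable between libraries for 1 gene. Levels of different genes are compared as TPM, a share of transcripts that also divides by transcript length.

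With edgeR's quasi-likelihood test paired by animal, 6616 of 14916 genes differed between the gates (44.4%) when a gene was called at an adjusted p below 0.05 with a log2 fold change beyond 1 in either direction. Of these, 3510 were higher (23.5%) and 3106 lower (20.8%) in CD45+ cells. For 9165 genes (61.4%) the 5 libraries of a gate all lay above the 5 of the other. Leaving out animals 5 and 6 gave 6786 called genes, 3609 higher and 3177 lower. In bulk samples such as these, fewer cells of a type and less RNA per cell cannot be told apart.

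**Figure D1:**
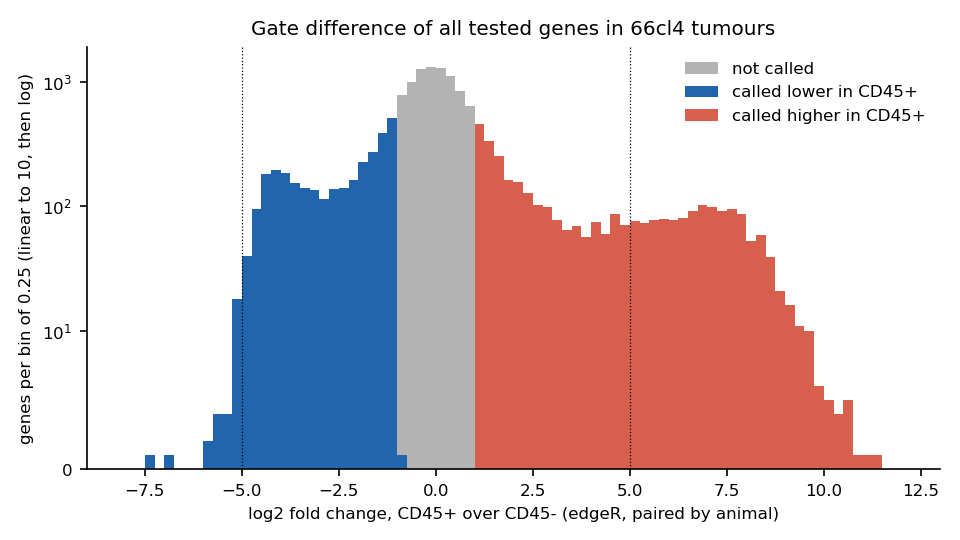
Number of genes (vertical axis, linear to 10 and log above) by log2 fold change of CD45+ over CD45- cells (horizontal axis, bins of 0.25) for 14916 tested genes, with called genes in red (higher) and blue (lower) and dotted lines at -5 and 5. The red side runs on past 8, whereas the blue side piles up between -5 and -3 and holds 30 genes beyond -5.

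The sizes of the differences were not symmetrical. A log2 fold change over 5 was seen in 1260 called genes and one under -5 in 30, while the counts beyond 2 were nearer to each other, at 2306 higher and 1705 lower. No gene was called lower beyond -8, against 232 called higher beyond 8. Between -5 and -4 lay 509 called genes, and only 28 in the next unit down. In 477 of the higher genes every CD45- library held at most 3 counts, whereas 92 of the lower genes had at most 3 counts in every CD45+ library. When the gate of higher level had at least 100 normalised counts in each library, these numbers were 63 and 1, and the single gene was the unnamed model Gm5624. Genes of the CD45- gate were thus seldom without reads in CD45+ libraries. The count under -5 was 64 without animals 5 and 6, 90 without animal 7, 59 without animal 6 and 19 without animal 3.

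The level of each gate's marker genes in the other gate was measured on lists. The summed level of 80 tested genes on 9 leukocyte lists (for neutrophils, eosinophils, mast cells, monocytes, macrophages, dendritic cells and T, B and NK lymphocytes) was 203823 to 296111 normalised counts in CD45+ and 1630 to 4644 in CD45- cells. In animals 3 to 7 the CD45- level was 0.593, 0.914, 1.57, 0.756 and 1.71% of the CD45+ level. By list it was highest for NK cells (3.47 to 12.3%), B cells (0.540 to 10.6%) and monocytes (1.60 to 3.73%). The CD45- sums of these lists were 197 to 341, 95.6 to 158 and 757 to 1341 normalised counts. A large part of each came from Eomes (NK cells), Cd79a (B cells) and Spn (monocytes). The CD45- levels of these genes are given below, and the shares are therefore not levels of whole cell types. The summed level of 27 tested genes on 4 other lists (fibroblast, pericyte, endothelial and epithelial) was 16816 to 23000 in CD45- and 2715 to 5318 in CD45+ cells. There the CD45+ level was 14.4, 22.4, 19.8, 24.2 and 23.1% of the CD45- level. That sum includes genes called higher in CD45+ cells, namely Thy1, Cdh1, Acta2, Pecam1 and Kdr, of which Thy1, Cdh1, Acta2 and Pecam1 had 501, 516, 655 and 501 normalised counts in CD45+ cells of animal 3, where the whole sum was 2715. By list the share was 6.38 to 18.3% for fibroblast, 9.75 to 15.7% for epithelial, 41.1 to 105% for pericyte and 101 to 236% for endothelial markers. The same genes enter these shares. In CD45+ cells of animal 3 the fibroblast sum was 695, with Thy1 at 501, and the epithelial sum 623, with Cdh1 at 516. For 16 tested Hox genes the share was 5.69, 9.61, 10.7, 11.2 and 14.1%, and for the collagen chains 6.30, 8.43, 10.3, 10.9 and 14.2%. Animal 3 was lowest and animal 7 highest on both. The part of unsorted cells or free RNA in these values was not tested.

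**Figure D2:**
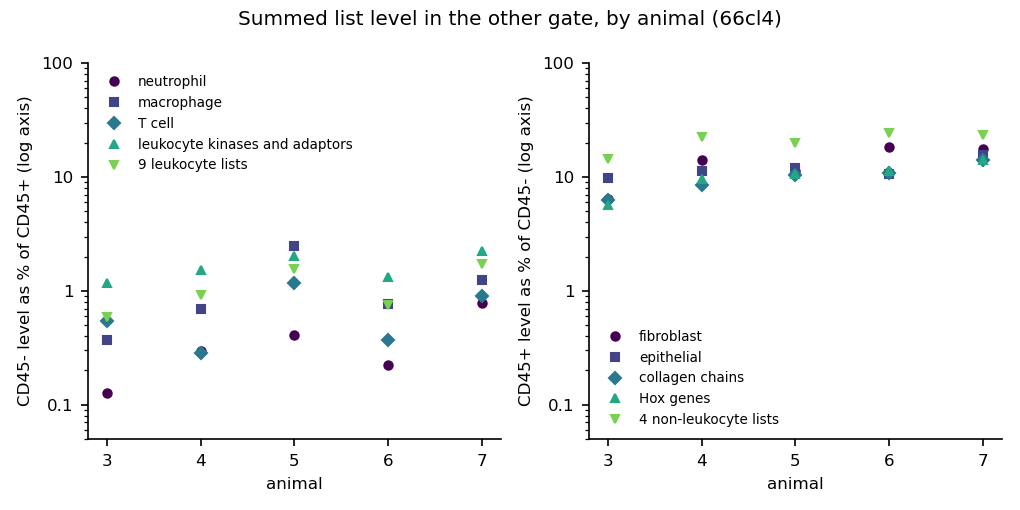
Summed normalised count of gene lists in the gate where they are low, as a percentage of the gate where they are high (vertical axes, log scale), for each of 5 animals (horizontal axes). In CD45- cells (left) the neutrophil, macrophage, T cell, kinase and summed leukocyte lists lie between 0.127 and 2.46%, and in CD45+ cells (right) the fibroblast, epithelial, collagen, Hox and summed non-leukocyte lists between 5.69 and 24.2%. The fibroblast and epithelial sums include Thy1 and Cdh1, which were called higher in CD45+ cells. The monocyte, B cell, NK cell, pericyte and endothelial lists are not drawn.

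The 12 largest increases were taken among abundant called genes (mean of at least 1000 normalised counts in the higher gate) whose gates did not overlap. Unnamed models and antigen receptor segments were left out. The 12 were genes of neutrophils, monocytes and lymphocytes. S100a9 and S100a8 encode calprotectin, the main cytosolic protein of neutrophils. S100a9 had 57282, 28946, 66146, 62228 and 20841 normalised counts in CD45+ cells of animals 3 to 7 and 27, 19, 196, 69 and 99 in CD45- cells, a log2 fold change of 9.37 ± 0.65 (SE). Il1b, the inflammatory cytokine interleukin-1 beta, had 75182, 44357, 90473, 96203 and 42569 against 38, 36, 365, 91 and 186, a log2 fold change of 9.29 ± 0.67. For both, animals 4 and 7 were lowest among CD45+ cells and animal 5 was highest among CD45- cells. The others with a myeloid role were Retnlg (9.21), Trem1, a receptor that amplifies neutrophil activation (9.18), G0s2, an inhibitor of triglyceride breakdown (9.04), S100a8 (9.02) and Cxcl2, a neutrophil chemoattractant (8.99). Sirpb1b (9.07) belongs to a family of similar copies among which reads may be divided.

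The lymphoid genes in that set were uneven among animals. Fcmr, the receptor for the Fc part of IgM, had 19, 3134, 13, 1252 and 1091 normalised counts in CD45+ cells of animals 3 to 7 and at most 3 counts in each CD45- library. Against that floor, averaged over the CD45- libraries, it was at least 379-fold higher, and its fitted log2 fold change of 11.39 has no firm size. Cd22 (40, 2949, 68, 1121 and 1031) and Cd79b (96, 3074, 77, 1918 and 1215), both parts of the B cell receptor complex or its regulators, were likewise lowest in animals 3 and 5. The summed B cell list was 1236, 27258, 945, 16457 and 11062 in CD45+ cells, with animals 3 and 5 far below the other 3. P2ry10, a lysophospholipid receptor of lymphocytes, was less uneven, with 1117, 2635, 1349, 3235 and 1668.

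All 10 tested of 13 neutrophil markers were called higher in CD45+ cells, as were 13 of 13 macrophage, 9 of 9 dendritic cell, 12 of 12 T cell, 9 of 9 mast cell and 4 tested of 8 eosinophil markers. These shares stand beside 23.5% higher among all genes tested. The median log2 fold change was 8.78 for neutrophil, 6.75 for macrophage, 7.17 for dendritic cell, 7.63 for T cell and 6.38 for mast cell markers, against -0.00915 for all genes. Of 9 monocyte markers 8 were higher (median 7.16), of 7 tested B cell markers 6 (8.01) and of 7 tested NK cell markers 6 (6.71). Among 3 tested platelet markers, Pf4 and Ppbp were higher.

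Csf3r, the receptor for granulocyte colony-stimulating factor, had 12573, 6866, 10773, 6561 and 6232 normalised counts in CD45+ cells and 6 to 47 in CD45- cells. Csf1r, its macrophage counterpart, had 7533 to 12806 against 15 to 214, and Mrc1, the mannose receptor of macrophages, 18031 to 25588 against 40 to 678. Every pair of ranges was separate. Of the T cell genes, Cd4 had 198 to 756 normalised counts and Cd8b1 54 to 621 in CD45+ cells. Both had at most 3 counts in any CD45- library, so that Cd4 was at least 174-fold and Cd8b1 at least 138-fold higher. By mean TPM in CD45+ cells, Cd4 (29.9) lay below Csf3r (231), Csf1r (398) and Mrc1 (323). Foxp3, the factor of regulatory T cells, had 238 to 551 against 0 to 9. Hdc, which makes histamine, and Cpa3, a mast cell protease, reached 2747 to 8809 and 450 to 1286.

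**Figure D3:**
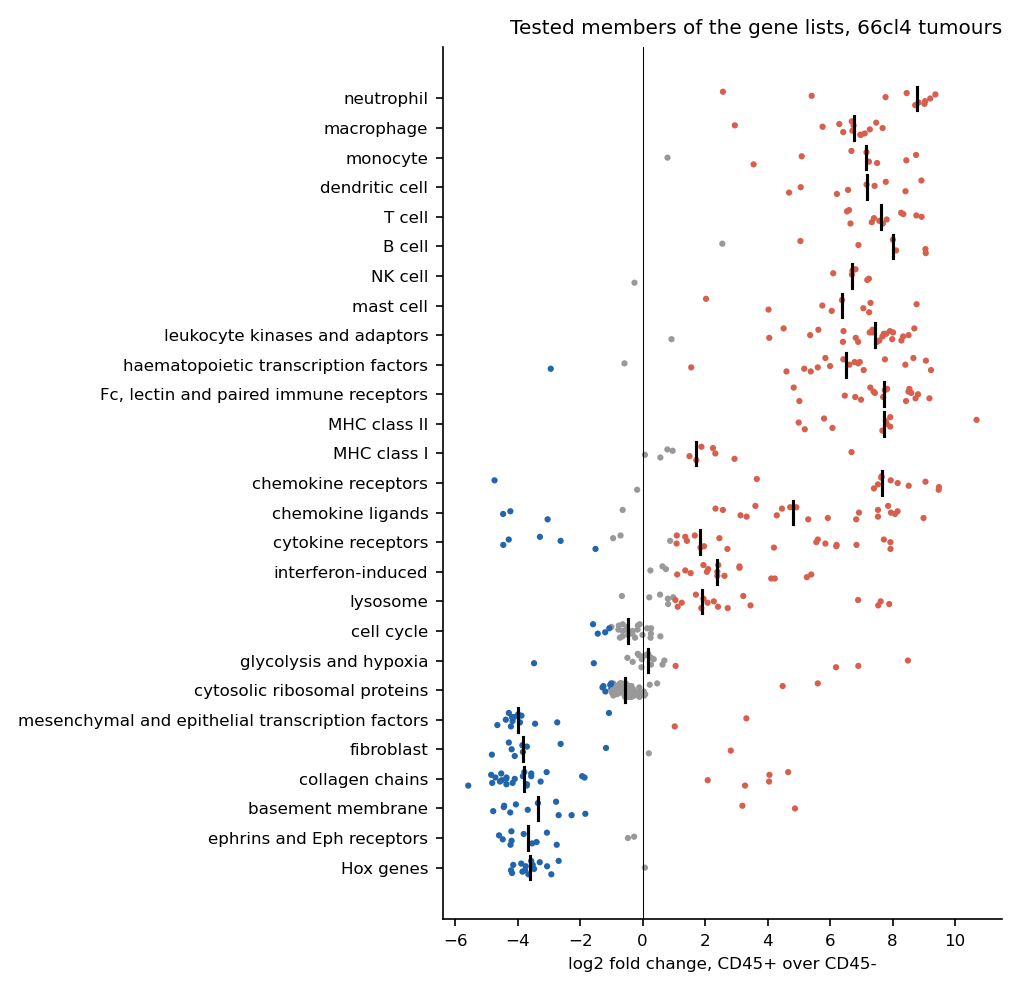
Log2 fold change of CD45+ over CD45- cells (horizontal axis) for each tested member of 27 gene lists (rows), with called genes in red (higher) or blue (lower), genes not called in grey and the list median as a black bar. Leukocyte marker lists centre between 6 and 9, MHC class I, lysosomal and interferon-induced genes between 1 and 3, cell cycle and ribosomal genes near 0, and matrix, Hox and Eph lists between -4 and -3.

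Genes that carry leukocyte signalling rose as a group, beside 23.5% higher among all genes tested. Of 24 kinases and adaptors, 23 were higher (median 7.43), as were 18 of 18 Fc, lectin and paired receptors (7.72), 10 of 10 MHC class II genes (7.73), all 9 tested leukocyte integrins and selectin (7.79) and 16 of 17 pattern recognition receptors (5.28). Tyrobp, the adaptor that links many myeloid receptors to Syk, was higher by 7.91 on the log2 scale and Syk itself by 8.28. Of 20 haematopoietic transcription factors 18 were higher (6.52). They included Spi1, which encodes PU.1 and had 3974, 2511, 3925, 2759 and 2668 normalised counts against 3, 6, 33, 7 and 24, and Ikzf1, which had 3897 to 5367 against 1 to 26. Gata3 was lower, with 157 to 333 in CD45+ and 1395 to 1943 in CD45- cells. Runx1 was not called, at -0.58.

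Ptprc, Csf3r and Itgam, the last the alpha chain of the integrin CD11b, are named among textbook targets of the ETS factor PU.1. Their promoter windows are shown because the 3 genes moved together and each window holds the letters GAGGAA, an ETS core, which were chosen after the sequences had been searched. The windows run 5′ to 3′ from 250 bases before to 50 bases after a RefSeq transcript start (build GRCm38.p6), and capitals mark GAGGAA or its reverse complement TTCCTC. Ptprc has 2 windows in the reference, of which the first is given (chr1:138175256-138175555, minus strand), Csf3r lies at chr4:126024409-126024708 (plus strand) and Itgam at chr7:128062390-128062689 (plus strand).
Ptprc: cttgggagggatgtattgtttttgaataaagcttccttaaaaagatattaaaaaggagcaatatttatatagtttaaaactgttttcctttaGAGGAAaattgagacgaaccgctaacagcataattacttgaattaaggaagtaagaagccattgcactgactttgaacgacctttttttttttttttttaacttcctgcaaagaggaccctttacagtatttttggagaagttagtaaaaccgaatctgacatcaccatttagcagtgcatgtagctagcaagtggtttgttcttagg
Csf3r: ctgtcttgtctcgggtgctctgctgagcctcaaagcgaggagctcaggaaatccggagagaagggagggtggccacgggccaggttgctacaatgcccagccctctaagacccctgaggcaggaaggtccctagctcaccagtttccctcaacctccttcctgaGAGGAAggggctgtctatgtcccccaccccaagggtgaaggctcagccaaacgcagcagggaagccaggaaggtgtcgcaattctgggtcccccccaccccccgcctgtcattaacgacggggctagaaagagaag
Itgam: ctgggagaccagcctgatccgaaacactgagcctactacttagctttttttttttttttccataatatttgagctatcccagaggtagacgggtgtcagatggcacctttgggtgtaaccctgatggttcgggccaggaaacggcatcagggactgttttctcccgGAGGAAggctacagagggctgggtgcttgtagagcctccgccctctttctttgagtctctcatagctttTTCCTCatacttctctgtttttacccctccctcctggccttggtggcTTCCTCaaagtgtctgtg
The match begins at base -158 from the start in Ptprc and -86 in Csf3r, and Itgam holds 3 matches, at -84, -15 and 33.

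Of 32851 promoter windows in the reference, 28.3% held GAGGAA on either strand. The share was 33.0% of windows of genes called higher, 25.8% of 7411 windows of genes not called and 25.7% of 2879 windows of genes called lower. Among the larger changes it was 39.3% of 1133 windows of genes called higher over 5 and 29.3% of 1015 windows of genes called lower under -3 (log2). The longer GAGGAAGT, whose matches are all among those of GAGGAA, was in 3.20% of all windows and, in the same order of sets, in 6.17, 2.70, 2.40, 9.89 and 2.86%. Mean GC content was 57.7, 60.6, 59.2, 54.2 and 57.3%, and its part in the shares was not tested. A window was found for 10562 of the 14916 tested genes. These are counts of letters and not of bound sites.

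Secreted signals fell on both sides of the sort. Of 24 tested chemokine ligands 20 were higher in CD45+ cells and 3 lower, and 11 of 13 tested chemokine receptors were higher. Among all genes tested 23.5% were higher and 20.8% lower. By TPM, Ccl6, Cxcl2 and Ccl9 were the most abundant of the ligands in CD45+ cells, at means of 4915, 1331 and 1118. The exceptions were Cxcl12, the ligand of Cxcr4, with 2912 to 4075 in CD45- and 61 to 443 in CD45+ cells, Cxcl5, a neutrophil chemoattractant, with 2687 to 4004 against 65 to 289, and Cx3cl1. Cxcl1 was not called, at -0.64. The only receptor called lower was Ackr4, a scavenger of homeostatic chemokines (-4.74).

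Growth factors and the receptors listed with them showed the opposite balance. Of 24 tested ligands 16 were lower in CD45+ cells and 5 higher. Of 19 tested receptor tyrosine kinases on their list 14 were lower and 1, Ret, higher. Among all genes tested 20.8% were lower and 23.5% higher. The list leaves out receptor tyrosine kinases set on the cell type lists. Of those tested, Csf1r (7.48), Flt3 (8.41), Mertk (6.29), Kit and Kdr were higher and Pdgfra (-4.82) was lower. Csf1, the growth factor of macrophages, had 9979 to 12078 normalised counts in CD45- and 1787 to 3225 in CD45+ cells, whereas its receptor Csf1r was in CD45+ cells, as given above. Kitl was lower in CD45+ cells (1808 to 2516 against 108 to 283) and its receptor Kit higher (mean 438 against 25). Osmr, the oncostatin M receptor, had 941 to 1431 in CD45- and 21 to 82 in CD45+ cells, and Osm, its ligand, was higher in CD45+ cells by 8.30 on the log2 scale. Il1rl1, the receptor of interleukin-33, was lower in CD45+ cells, with 6513, 9477, 10031, 11447 and 10048 in CD45- against 630, 1138, 1001, 1136 and 1092, and Il33 itself was lower (-3.69). Vegfa was higher in CD45+ cells (2012 to 6343 against 767 to 1382), as were Hgf (4.59) and Pdgfb (3.61). Where a ligand and its receptor lay in different gates, the data give their transcripts and no measure of signalling.

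The 12 largest decreases among abundant genes, chosen by the same rule as the increases, included several of the matrix. Ccn2, a matricellular protein also known as connective tissue growth factor, had 22, 32, 84, 101 and 97 normalised counts in CD45+ and 2664, 2036, 2605, 1813 and 1622 in CD45- cells of animals 3 to 7, a log2 fold change of -5.07 ± 0.44 (SE). Mgp, the matrix Gla protein that inhibits calcification, had 234, 582, 683, 1724 and 1480 against 21754, 24294, 20753, 32829 and 20606 (-4.98 ± 0.45). Pdgfra, the alpha receptor for platelet-derived growth factor, had 40, 202, 112, 240 and 302 against 4541, 4645, 4257, 4167 and 4594 (-4.82 ± 0.44). That the gates did not overlap was a condition for entering the 12. In CD45+ cells animal 3 was lowest for 12 of the 12, and animal 7 was highest for 9 and animal 6 for 3. The others were Itih2, Islr, Ogn, Scara5, Col6a1, Aspn, Stra6, Fgfbp1 and Adamts5, with log2 fold changes from -4.99 to -4.78. Ogn, Aspn and Col6a1 encode structural proteins of the matrix, and Adamts5 a protease that cleaves aggrecan.

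Of 27 tested collagen chains 22 were lower in CD45+ cells and 5 higher (median -3.79), beside 20.8% lower among all genes tested. Col1a1, Col3a1 and Col6a1 had mean normalised counts of 1710, 1390 and 4146 in CD45- cells and 117, 122 and 159 in CD45+ cells. Of 13 tested basement membrane genes 11 were lower, among them Lamb1 (-4.24) and Hspg2, which encodes perlecan (-4.43). Of 20 tested matrix glycoproteins and crosslinkers 16 were lower, with Sparc at 9964 to 12049 in CD45- and 228 to 1111 in CD45+ cells. Of 11 fibroblast markers 9 were lower and Thy1 higher (2.82). Thy1 is also carried by T cells. Of the remaining lists, 10 of 12 tested ephrins and Eph receptors, 15 of 16 tested Hox genes and 10 of 17 tested junction genes were lower, the last including Tjp1 of tight junctions (-4.53) and Cdh2, which encodes N-cadherin (-4.29).

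Several genes known from the Hippo pathway were lower in CD45+ cells. Its effectors YAP and TAZ enter the nucleus and act through TEAD factors, and Ccn1 and Ccn2 are their classic targets. Yap1 had 932 to 1132 normalised counts in CD45- and 36 to 101 in CD45+ cells, Wwtr1, which encodes TAZ, 5426 to 6629 against 182 to 482, and Tead1 4779 to 6352 against 127 to 469. Ccn1 had 33469, 29682, 45148, 30940 and 33561 in CD45- and 334, 1393, 1524, 1662 and 2762 in CD45+ cells (-4.73 ± 0.48). Tead2 and Tead3 were lower as well, at -4.65 and -3.88. These genes were brought together after their values were seen.

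The promoter windows of Ccn1 (chr3:145649936-145650235, minus strand) and of Axl (chr7:25788684-25788983, minus strand), a receptor tyrosine kinase with 10138 to 11784 normalised counts in CD45- and 1775 to 2650 in CD45+ cells, are given because both hold the TEAD core GGAATG or its reverse complement CATTCC, in capitals. Both were chosen for holding it.
Ccn1: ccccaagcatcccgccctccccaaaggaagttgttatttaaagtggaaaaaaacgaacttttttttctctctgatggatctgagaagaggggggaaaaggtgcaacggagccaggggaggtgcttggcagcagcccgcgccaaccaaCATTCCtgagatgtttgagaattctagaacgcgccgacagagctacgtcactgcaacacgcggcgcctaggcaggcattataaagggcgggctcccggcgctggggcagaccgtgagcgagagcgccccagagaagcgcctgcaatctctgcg
Axl: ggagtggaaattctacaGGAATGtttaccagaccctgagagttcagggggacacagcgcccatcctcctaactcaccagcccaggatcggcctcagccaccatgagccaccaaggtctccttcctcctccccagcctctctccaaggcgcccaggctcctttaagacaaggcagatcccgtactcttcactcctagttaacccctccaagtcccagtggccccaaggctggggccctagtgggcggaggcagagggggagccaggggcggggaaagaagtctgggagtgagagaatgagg
The match begins at base -103 in Ccn1 and -233 in Axl. GGAATG was in 14.7% of all 32851 windows and, in the order of sets used for GAGGAA, in 12.3, 10.8, 15.7, 12.1 and 18.7%. Matches of GGAATG and GAGGAA may overlap and were counted apart.

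Many markers of epithelium and of vessels were thin in CD45- cells, though not the keratins Krt8 and Krt18. Of 13 epithelial markers 5 were tested. Krt8 and Krt18, the paired keratins of simple epithelium, were lower in CD45+ cells, with 4886 to 5575 and 989 to 1300 normalised counts in CD45- cells, whereas Epcam had 2 to 25 in these cells and Cdh1, which encodes E-cadherin, 15 to 24. Cdh1 was called higher in CD45+ cells, with 516, 292, 473, 335 and 352. Of 11 endothelial markers 5 were tested, and Tek, Tie1, Cldn5, Esam, Egfl7 and Sox17 had too few counts. Cdh5, the cadherin of endothelium, had 444 to 776 in CD45- and 74 to 137 in CD45+ cells, while Pecam1, which leukocytes also carry, was higher in CD45+ cells (501 to 1498 against 34 to 125). None of the lymphatic endothelial or adipocyte markers passed the filter.

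Some genes known from epithelium, matrix or muscle were instead higher in CD45+ cells. Vcan, the proteoglycan versican, had 22288, 11050, 24188, 10433 and 9071 normalised counts in CD45+ cells and 81, 88, 130, 72 and 188 in CD45- cells, a log2 fold change of 7.04 ± 0.41 (SE). Col14a1 was the most strongly raised collagen chain, at 486 to 936 against 17 to 68 (4.66 ± 0.23). Nectin1, an adhesion molecule of adherens junctions, had 278 to 588 against 3 to 10. Jup, which encodes plakoglobin, had 152 to 251 against 8 to 14, Krt80 433 to 727 against 28 to 59, Lamb3 117 to 302 against 3 to 15, and Itga9 396 to 881 against 0 to 22. All 5 were separate between the gates, and in CD45- cells the level was low in every animal.

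Some genes usually read as leukocyte markers kept a level in CD45- cells. Itgb2, the common chain of the leukocyte integrins, was called higher in CD45+ cells by 1.87 ± 0.14 (SE), with 17288, 9956, 15713, 11149 and 11281 normalised counts. In CD45- cells it had 3204, 3423, 3646, 3251 and 3647. Its partner chain Itgam ranged from 9 to 276 in the same CD45- libraries, so Itgb2 kept a nearly even level there while Itgam varied with the animal. Eomes, a T-box factor of NK and effector T cells, was not called (-0.26 ± 0.22), with 191, 200, 173, 191 and 193 in CD45- and 85 to 242 in CD45+ cells. Spn, which encodes CD43, had 468 to 620 in CD45- and 723 to 1080 in CD45+ cells and was not called at 0.80. Tigit, an inhibitory receptor of T and NK cells, was lower in CD45+ cells (688 to 1376 in CD45- against 203 to 408). Il18rap had 1968 to 2974 in CD45- and 1227 to 2050 in CD45+ cells (-0.71, not called). Cd79a had 56 to 88 in CD45- cells, above the CD45+ libraries of animals 3 and 5 at 25 and 11. Trem2, known from macrophages, was higher in CD45+ cells (560 to 1530) but had 97 to 184 in CD45- cells, with animal 6 the highest there and animal 3 the lowest.

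**Figure D4:**
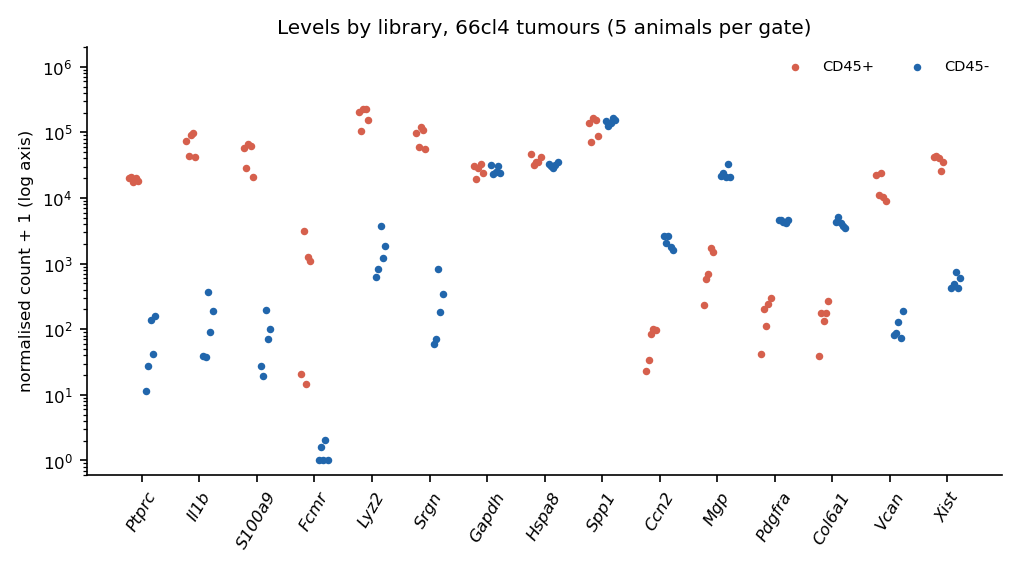
Normalised count plus 1 (vertical axis, log scale) of 15 genes (horizontal axis) in 5 CD45+ libraries (red) and 5 CD45- libraries (blue), each point 1 library, in the order of animals 3 to 7. Leukocyte genes lie above in CD45+ cells, with Fcmr spread from 13 to 3134, Gapdh and Hspa8 overlap between the gates, and matrix genes lie below, lowest in animal 3 within CD45+ cells.

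Antigen presentation genes differed more by class. All 10 MHC class II genes were higher in CD45+ cells, with a median of 7.73 and H2-Aa having 12076 to 20361 normalised counts against 28 to 143, whereas 7 of 11 MHC class I genes were higher with a list median of 1.72. H2-K1 had 6085 to 8049 in CD45+ and 1703 to 2002 in CD45- cells (1.88 ± 0.10), and B2m 65491 to 101456 against 21952 to 23785 (1.72 ± 0.12). Of 19 interferon-induced genes 16 were higher and none lower (median 2.39). Rsad2, which encodes the antiviral protein viperin, led with 1196 to 2380 against 35 to 47, and Irf7 had 2085 to 2954 against 237 to 376. Of 17 guanylate-binding and IRG GTPases 11 were higher (1.22). These list counts stand beside 23.5% higher among all genes tested. Cd274, which encodes PD-L1, had 1973 to 3939 against 313 to 391 (2.99 ± 0.12), whereas Cd47, the signal that restrains phagocytes, differed by 0.47 and was not called.

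Of 16 tested eicosanoid enzymes and receptors 11 were higher in CD45+ cells, 3 lower and 2 not called. Among all genes tested 23.5% were higher and 20.8% lower. Alox5, the 5-lipoxygenase, had 771 to 1588 normalised counts in CD45+ and 0 to 26 in CD45- cells, and Ptges, which makes prostaglandin E2, had 61 to 228 against 2413 to 2818. Ptgs2, the inducible cyclo-oxygenase upstream of Ptges, was abundant in both gates (17848 to 37821 against 12302 to 21895) and was not called at 0.68. In glycolysis 15 of 21 genes were not called, and the median was 0.18. The lactate exporter Slc16a3 was an exception at 1572 to 6346 against 1 to 20, and Car9, a carbonic anhydrase induced by hypoxia, was lower in CD45+ cells (111 to 216 against 1649 to 2421). The NADPH oxidase of phagocytes was higher in CD45+ cells with Cybb at 7.89, and Nox4 was lower at -2.89.

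By TPM, the most abundant genes of CD45+ cells were Eef1a1, the elongation factor of translation (9121 ± 943 TPM, SD, n = 5), Srgn, the core of the secretory granule proteoglycan (8196 ± 2187), Fth1, Lyz2, Tmsb4x, Actb, Il1b, Rpl23a, B2m and Ccl6. Those of CD45- cells included Eef1a1 (13958 ± 730), Fth1 (11076 ± 1382), the ribosomal genes Rpl38, Rps20, Rps12, Rpl23a and Rpl41, Spp1, which encodes osteopontin (6009 ± 526), and Tpt1. Genes encoded by mitochondria, unnamed models and antigen receptor segments were left out of this ranking. Spp1 was not called, at 71866 to 167302 normalised counts in CD45+ and 126400 to 166740 in CD45- cells. Tmsb4x, an actin-sequestering peptide, was 24.4-fold higher in CD45+ cells, and Actb 3.44-fold.

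Part of the expressed genome differed little between the gates. By adjusted p alone (edgeR), 10933 of the 14916 tested genes fell below 0.05. For 1946 of the 14916 the 95% interval of the log2 fold change lay within -0.5 and 0.5, and for 5803 within -1 and 1. Among the most abundant of the first set were Rps29, Hspa8, Cst3, Ftl1, Gapdh, Ppia and Rpl19. Gapdh had 31227, 19217, 29096, 32859 and 23745 normalised counts in CD45+ and 31596, 23579, 24795, 30305 and 24100 in CD45- cells, with an interval of -0.28 to 0.22. Of 27 cell cycle genes 23 were not called, and Kif11, Birc5, Cdc20 and Plk1 were lower in CD45+ cells. Mki67, the proliferation antigen, had 3366 to 5358 in CD45+ and 4773 to 7063 in CD45- cells (-0.40, not called). Of 82 tested cytosolic ribosomal protein genes 74 were not called (median -0.55), and the 6 lower ones became 3 with RLE size factors and 13 without animals 5 and 6. Of 79 tested nuclear genes of the respiratory chain 75 were not called (-0.04), with Cox7b2 lower (-4.12) and Cox6a2 higher (4.75).

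Whether the gate difference was particular to 66cl4 tumours was asked with an interaction over the 20 libraries, in which the 10 animals formed the blocks. It was called for 4294 of 16453 genes (26.1%). In 67NR tumours the leukocyte lists reached 2.23 to 7.61% of the CD45+ level in CD45- cells, against 0.593 to 1.71% in 66cl4, and the Hox list 16.1 to 33.3% of the CD45- level in CD45+ cells, against 5.69 to 14.1%. The ranges did not overlap for either. They did for the collagen chains (5.24 to 21.8% in 67NR against 6.30 to 14.2%) and the 4 summed non-leukocyte lists (18.3 to 28.7% against 14.4 to 24.2%). The summed Hox counts in CD45+ cells overlapped, at 119 to 288 in 67NR and 128 to 316 in 66cl4. In CD45- cells they were 671 to 903 and 1909 to 2267, so the Hox shares differed in the level they are divided by. The genes summed were those tested in 66cl4. The part of these levels in the interactions was not tested. Ptprc itself differed, with a gate difference larger by 1.94 in 66cl4 (adjusted p = 0.042).

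Some of the genes with the largest interactions changed sides between the tumours. Vcan was higher in CD45+ cells of 66cl4, as given above, but lower in those of 67NR (3579 ± 1607 against 11007 ± 1986 normalised counts, SD, n = 5), a difference of 8.80 ± 0.50 (SE) in log2. Thbd, which encodes thrombomodulin, had 781 ± 360 in CD45+ and 22 ± 10 in CD45- cells of 66cl4 and 530 ± 203 against 1654 ± 218 in 67NR tumours. Stac2 also changed sides (interaction 6.72), while Dock11 was higher in CD45+ cells of 66cl4 and was fitted at 0.77 in 67NR tumours (interaction 6.51). For Fcmr (6.97) the CD45- level was at the floor in 66cl4, so the value has no firm size. In Vcan, Thbd, Stac2 and Dock11 the CD45- cells of 67NR tumours had means of 1255 to 11007, and those of 66cl4 had means of 4 to 112. The CD45+ cells of Vcan also differed, with a mean of 15406 in 66cl4.

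Xist, the non-coding RNA that coats the inactive X chromosome of female cells, was the clearest of these. It had 42869, 44209, 40064, 25878 and 34946 normalised counts in CD45+ cells of 66cl4 animals 3 to 7 and 419, 488, 743, 424 and 593 in their CD45- cells, 70.5-fold less on average, with a log2 fold change of 6.12 ± 0.19 (SE). In 67NR tumours it had 33264 ± 5349 in CD45+ and 33869 ± 4521 in CD45- cells. The interaction was 6.17 ± 0.22. Of genes that escape X inactivation, Ddx3x, Kdm6a, Kdm5c and Eif2s3x were not called, lying between 0.20 and 0.49. Ftx, on the same list as these, was called higher in CD45+ cells at 1.17.

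In the other direction, Eya1, a transcriptional coactivator with phosphatase activity, had 1525 to 2117 normalised counts in CD45- and 35 to 177 in CD45+ cells of 66cl4, and 5.59 ± 1.78 against 46.2 ± 28.8 (SD, n = 5) in 67NR tumours. Pkia, an inhibitor of protein kinase A, had 3868 ± 402 in CD45- cells of 66cl4 and 19.2 ± 6.76 in those of 67NR. Fam213a was likewise lower in CD45+ cells of 66cl4 (-3.16), with an interaction of -5.64. Pon3 was not called in 66cl4 (-0.97) and had an interaction of -4.81. Fgfbp1 was nearly absent from both gates of 67NR tumours, at 1.76 ± 3.93 and 1.60 ± 1.81. Tpt1-ps3, a pseudogene copy of the abundant Tpt1, had an interaction of -7.87 ± 2.46, and its reads can be shared with the parent gene.

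**Figure D5:**
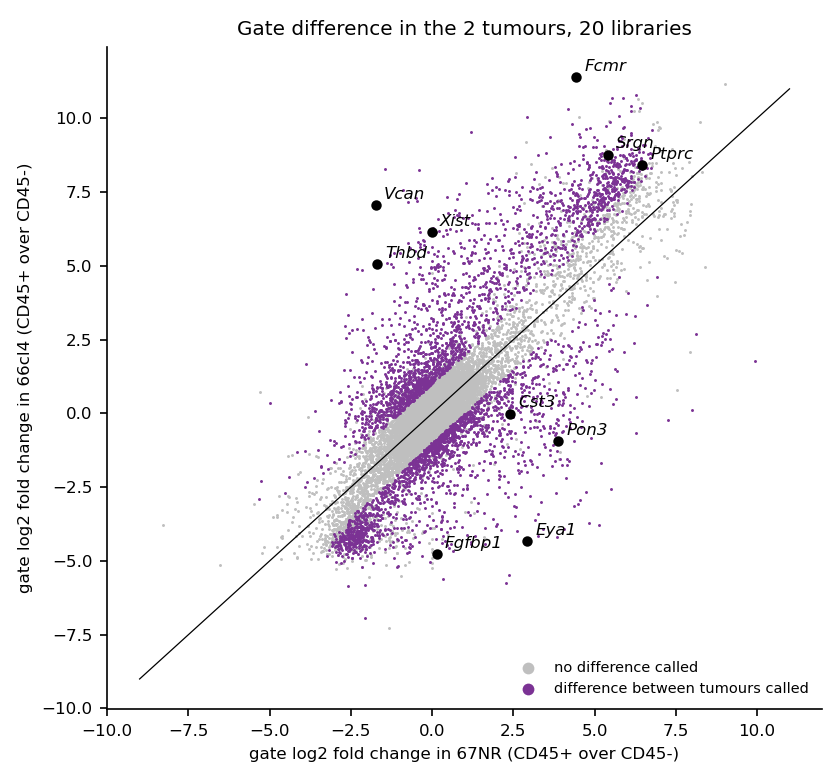
Log2 fold change of CD45+ over CD45- cells in 67NR (horizontal axis) and 66cl4 tumours (vertical axis), each point a gene tested in both fits, purple where the difference between tumours was called and grey otherwise, with the line of equality. Vcan, Thbd and Xist lie far above the line and Eya1, Fgfbp1 and Pon3 below it.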

How the data were processed

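RNA of cells sorted from 66cl4 tumours on CD45 was measured in 10 libraries, made from poly(A) RNA with the SENSE mRNA-Seq kit. The authors deposited a table of estimated counts per gene, made by Salmon 1.3.0 and summed from transcripts to genes, after bcl2fastq 2.2.20 and read trimming. The submitters' notes name GRCh38, a human build, while the table holds mouse identifiers, and the mouse build is not given in the sources used here. Estimates were rounded to whole numbers. No column was left unused. TPM was computed here with reference transcript lengths, without 1291 genes that had no length (1.30 to 4.62% of counts). The largest limit that a count of 0 allows in a library, 3 counts of the total, was 2.31e-05%, for counting error only.

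Genes were kept by edgeR's filter (10 counts at the median library size, 15 in total) and tested with edgeR 4.0.16 (TMM scaling, robust quasi-likelihood fit, animal as block), with Benjamini-Hochberg adjustment over all genes tested. Both gates of a number come from the same animal, and the correlations of their deviations were 0.0137 to 0.157. P-values rest on how much the gate difference varied between these animals, and the fit draws each gene's spread toward that of the other genes. They do not measure how much the level of a gene varied between animals. Groups followed the titles. Named genes were Ptprc and the 12 largest changes each way with a mean of at least 1000 normalised counts and no overlap of the gates. Further ones were the 10 highest TPM of each gate and the 8 most abundant genes with an interval within 0.5. The 6 largest interactions each way and members of 72 lists were added. Unnamed models, genes encoded by mitochondria and antigen receptor segments were left out of the rankings. Some of the genes so chosen are not reported here. The comparison, the members of the lists and the genes singled out in the text were chosen with earlier results of these data known. A fold is given as a bound where all libraries of a gate had at most 3 counts.

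On simulated data with 13624 genes, the paired fit recovered 103 of 103 genes changed by 2 and 96 of 96 changed by 4 (log2), with 7 false among 206 calls. For the interaction, 77 of 88 and 112 of 112 of 13936 genes were recovered, with 5 false among 194 calls. Each simulation changed 200 genes up or down at random, with a single dispersion for all genes. In the data 44.4% of genes were called in the paired fit and 26.1% in the interaction. The simulated rates therefore cannot be read as those of the data. DESeq2 1.42.0, limma 3.58.1, R 4.3.3, Python 3.11.15, pandas 2.3.3, numpy 2.4.6 and matplotlib 3.10.9 were used.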

Additional observations from a re-analysis of the deposited data

Results flagged for a closer look

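In 6 of 120 groups of 5 libraries tested, 1 library lay apart from the others by more than Dixon's critical share of the range, 0.71, where chance gives about 1 in 20. In CD45- cells of animal 5, Cxcl2 had 425 normalised counts against 12 to 112 in the others (gap over range 0.758) and Ccl6 1417 against 72 to 423 (0.739). Itih2 had 1943 in CD45- cells of animal 3 against 981 to 1087 (0.889). In CD45+ cells of animal 6, Tmsb4x (0.718), Rps12 (0.724) and Rpl41 (0.804) were high, at 143431, 63767 and 61318.

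The gate difference was tested between the tumours for 59 genes and differed for 38. Of the 59, 12 had been chosen as the largest interactions, and over all genes 26.1% differed. Values are the log2 difference in 66cl4 minus that in 67NR. Among genes higher in CD45+ cells it was larger in 66cl4 for Ptprc (1.94), Fcmr (6.97), P2ry10 (2.85), S100a9 (3.59), S100a8 (3.20), Il1b (2.69), Retnlg (3.42), Trem1 (3.46), Sirpb1b (2.62), Cd22 (4.07), Cd79b (4.34), G0s2 (3.10), Cxcl2 (3.33), Srgn (3.37), Lyz2 (1.49) and Ccl6 (2.89). Among genes lower in CD45+ cells it was more negative for Ccn2 (-2.08), Islr (-2.42), Ogn (-2.29), Col6a1 (-1.58), Pdgfra (-1.91), Stra6 (-4.50), Fgfbp1 (-4.90), Adamts5 (-2.49) and Rpl38 (-1.08). Of genes not called in 66cl4, Spp1 differed by 1.29, Cst3 by -2.40, Ftl1 by -1.11, Pon3 by -4.81 and Tpt1-ps3 by -7.87. The others were Vcan (8.80), Thbd (6.76), Stac2 (6.72), Dock11 (6.51), Xist (6.17), Eya1 (-7.26), Fam213a (-5.64) and Pkia (-5.61). The level of leukocyte genes in CD45- cells also differed between the tumours, and its part in these values was not tested.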

How the results depend on the processing

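The 6616 calls numbered 5450 to 8751 over 13 alternatives, and 6554 to 6828 with 1 animal left out. Without the replicate block, that is with the pairing by animal ignored, there were 6621 calls, of which 6551 were shared. Calls higher in CD45+ cells numbered 3494 to 3653 and lower ones 3015 to 3175 with 1 animal left out, and calls over 5 numbered 1249 to 1311. The 30 calls under -5 became 105 with DESeq2, 121 with no filter and 64 without animals 5 and 6, and ranged from 19 (without animal 3) to 90 (without animal 7) with 1 animal left out, with 59 without animal 6. The cause was not tested. The 4294 interactions numbered 3671 without 66cl4 animals 5 and 6, 5072 with DESeq2, 4476 without the replicate block and 3964 to 4463 with 1 animal left out. The 946 calls among 1564 list genes ranged from 930 to 941 over 4 alternatives. Of 319 called genes named or listed, 299 kept the call in each alternative that could fit them, and none changed direction. Other scalings moved the median of all genes by at most 0.0656. Genes at or under 3 counts in a gate have no firm fold change at these depths.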

Other observations

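The counts of other gene families stand beside 23.5% higher and 20.8% lower among all genes tested. All 11 tested Ms4a genes, a family of membrane proteins of leukocytes, were higher in CD45+ cells (median log2 fold change 7.79), as were 16 of 20 tested C-type lectins. Of 11 tested receptor-type tyrosine phosphatases, the family of CD45 itself, 7 were higher and 2 lower. Of 24 tested semaphorins and plexins 8 were higher and 14 lower. Of 21 tested serpins 10 were higher and 11 lower.

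Haemoglobin transcripts stood out in a single library. Hbb-bs had 2441 normalised counts in CD45- cells of animal 3, against 8 to 26 in the other CD45- libraries and 39 to 66 in CD45+ cells. Hba-a1 had 1303 in that library, against at most 42 in the other CD45- libraries.

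Genes with at least 100 normalised counts in both gates had different medians by chromosome. On chromosome 3, 433 genes had a median log2 fold change of -0.527, with 70.4% below 0. The animals gave -0.502, -0.520, -0.510, -0.469 and -0.594, and the genes of its first, middle and last part by position, in nearly equal numbers, -0.505, -0.507 and -0.692. On chromosome 8, 467 genes had a median of -0.263, with -0.191 to -0.309 in the animals. In 67NR tumours the medians of these 2 chromosomes were -0.165 and 0.151. Over all chromosomes they ran there from -0.251 (chromosome 15) to 0.393 (chromosome 14), so 67NR medians were spread as well. Chromosome X had -0.178, with 0.043 in animal 6 and -0.175 to -0.238 in the others, and chromosome 13 had -0.144, with -0.181 to 0.00762 in the animals. The other 16 lay between -0.0755 and 0.0134.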
